A study of Homo sapiens with 6 samples.

Results

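The human genome carries many copies of ribosomal protein genes that are annotated as pseudogenes, and 158 of them had counts in HGC-27 gastric cancer cells. They were selected on the summed count over the 6 libraries, which had to reach 60, among 1599 genes of the count table whose GENCODE type contains the words processed pseudogene and whose symbol is that of a ribosomal protein followed by P and a number. The count table held 58825 genes in all. The 158 pseudogenes derive from 57 parent genes, and 1441 genes of the same naming fell under the threshold, 749 of them with 0 counts. Because the summed count chose the members, their levels are a description, whereas the contrast between the groups was not used in the choice. Identity to the parent was not measured for the choice either, but for most members the gene type already implies a copy without introns.

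RNA-seq libraries were made from 3 samples of HGC-27 cells labelled GC0643 overexpression and 3 labelled Vector control. HGC-27 is an established human gastric cancer cell line, and both groups were grown in RPMI-1640 with fetal bovine serum. The overexpressing cells were a stable line made by retroviral infection and puromycin selection, and the number of independent clones was not given in the sources used here. GC0643 was not analysed here, and its level was therefore no check on the group labels. Total counts ranged from 20376722 to 24069166 per library. Of 6 epithelial marker genes, 5 were under 1 CPM (a gene's counts scaled to a common library total by the TMM method) in every library, the exception being KRT8, and all 7 gastric mucosa markers were under 1 CPM. Of 4 mesenchymal marker genes, 1 (CDH2) was under 1 CPM in every library. The mesenchymal list summed to between 3116 and 3444 CPM, nearly all of it VIM.

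Ribosomal proteins are the protein part of the ribosome. Those named RPS belong to the small subunit, which reads the mRNA, and those named RPL to the large subunit, which joins amino acids. A processed pseudogene arises when a cellular mRNA is copied into DNA by reverse transcription and inserted elsewhere in the genome, so that the copy lacks the introns of its parent. Highly expressed housekeeping genes such as those of ribosomal proteins have left many such copies, and most are not known to make a protein. A young copy differs from its parent at few bases, and a short sequencing read from either place can then match both.

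Stretches of 60 bases are shown for 5 of the pseudogenes, chosen to show how far the letters tell a pseudogene from its parent. All lie within the coding sequence of the parent. Each is the first stretch, aligned without gaps, that holds the most differences. Its differences are thus those of the most divergent 60 bases and not of the whole copy. Coordinates are GRCh38 with GENCODE annotation, sequences run 5′ to 3′ on the strand of the gene, and capitals mark the bases that differ within each pair. RPL36AP37 (chr11:16974954-16975013, minus strand, in an intron of PLEKHA7) was identical to its parent RPL36A on chromosome X, and the stretch crosses an exon junction of the parent.
RPL36AP37 and RPL36A: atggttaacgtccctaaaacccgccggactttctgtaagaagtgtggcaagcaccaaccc
RPL17P7 (chr1:108992282-108992341, plus strand, in an intron of WDR47) also crosses a junction of its parent RPL17 and differs at 1 base, A37G, counted from the first base of the parent's start codon.
RPL17P7: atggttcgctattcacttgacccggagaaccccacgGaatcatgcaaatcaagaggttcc
RPL17: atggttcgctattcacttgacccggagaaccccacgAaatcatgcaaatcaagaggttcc
RPL13P12 (chr17:17383782-17383841, minus strand) differs from RPL13 at C178T, G230A and C231T.
RPL13P12: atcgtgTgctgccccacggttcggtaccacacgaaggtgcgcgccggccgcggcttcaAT
RPL13: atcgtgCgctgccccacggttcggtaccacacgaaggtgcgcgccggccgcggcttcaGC
RPS3AP6 (chr15:59768352-59768411, plus strand) differs from RPS3A at 1 base, G6T.
RPS3AP6: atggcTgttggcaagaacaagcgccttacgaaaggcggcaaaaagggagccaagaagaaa
RPS3A: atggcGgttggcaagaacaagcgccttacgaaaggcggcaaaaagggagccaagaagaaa
RPL23AP64 (chr11:119003272-119003331, minus strand, in an intron of CENATAC) is a more distant copy that differs from RPL23A at 13 of the 60 bases.
RPL23AP64: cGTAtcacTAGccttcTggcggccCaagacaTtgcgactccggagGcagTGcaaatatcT
RPL23A: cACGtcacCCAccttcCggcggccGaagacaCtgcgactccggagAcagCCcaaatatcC

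For all but 3 of the 158 members, the gene type by which they were chosen already implies copies of spliced mRNA. The structure of the members is therefore described here and not tested. Each annotated transcript was aligned to the transcript of its parent, and 157 of 158 ran without a break through at least 1 exon junction of the parent. The exception was RPL32P3. In 137 members every junction within the alignment was read through, the median being 4 junctions and the highest 8, and 142 members have 1 exon. For the rest the annotated transcript leaves out any introns, so a junction read through does not show that they lack them. GENCODE types 139 as processed, 16 as transcribed processed and 3, RPL23AP82, RPL32P3 and RPL13AP26, as unprocessed pseudogenes, which the selection took in because the word unprocessed contains processed. Members lie on 23 chromosomes, and 8 of 158 share the chromosome of their parent.

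Pseudogenes near in sequence to their parents reached the count threshold more often than distant ones. Identity to the parent over the aligned bases had a median of 97.1% in members (range 74.6 to 100%) and of 88.1% in the 1441 pseudogenes under the threshold. The longest run of identical bases had a median of 123.5 bases in members and 38 bases in the others. Among pseudogenes aligned over at least 80% of their length, 81 of 116 at an identity of 97% or more were members (69.8%), against 77 of 1443 below it (5.34%). The pseudogenes at 97% or more held 90.02% of all counts assigned to ribosomal protein pseudogenes. Per class, the median summed count was 0 in pseudogenes under 90%, 14 between 95 and 97%, 74 between 97 and 98%, and 665 at 99% and above. Spearman's rho between summed count and identity was 0.39 across the 1599 pseudogenes and 0.52 across the 158 members. These are descriptions across genes of the same 6 libraries, in which copies of the same parent are not independent.

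**Figure D1:**
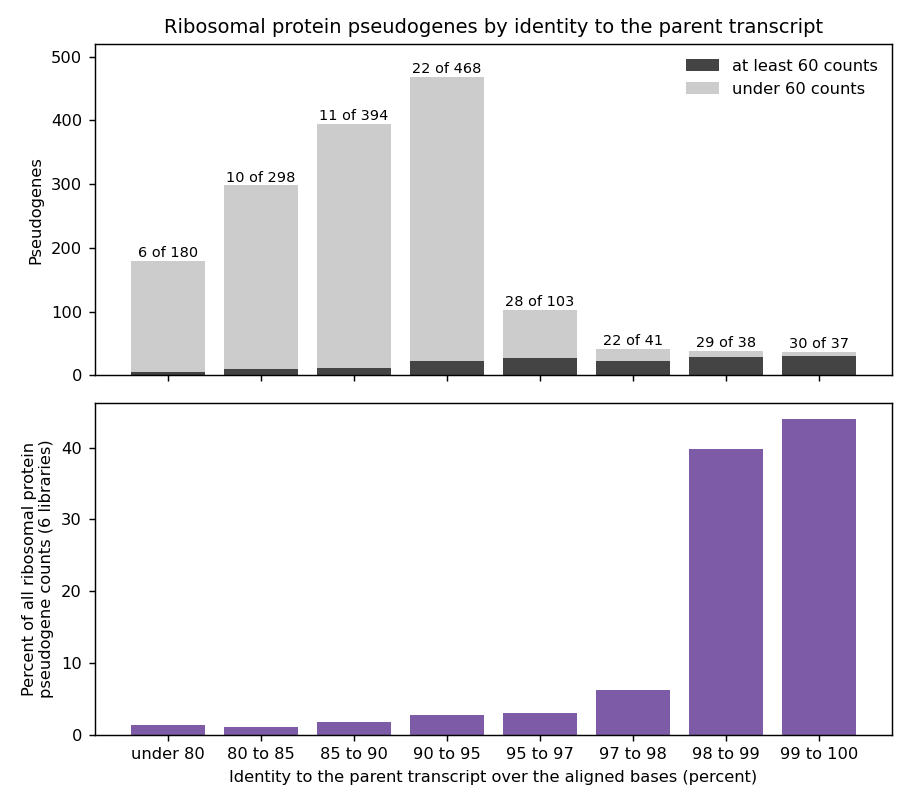
Upper panel: number of ribosomal protein pseudogenes in each class of identity to the parent transcript (percent), dark for those with at least 60 counts over the 6 libraries and light for the rest. Lower panel: percent of all ribosomal protein pseudogene counts held by each class. Few pseudogenes lie at 98% and above, yet these classes hold 39.8 and 43.95% of the counts.

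A long reading frame was also more frequent among members. As members were nearer to their parents in sequence and no comparison at equal identity was made, this is no separate trait. In 68 of 158 members (43.0%) the longest open reading frame was at least 95% as long as the parent protein, against 110 of the other 1441 (7.63%). Among the 12 highest members, 9 kept a frame of 100% of the length of the parent protein, and RPS2P46, RPL3P4 and RPS27AP16 had 62.8, 17.9 and 65.4%. A reading frame in the sequence says nothing of whether a protein is made.

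Where a member matches its parent base for base, a read cannot be placed with certainty. Members that were identical to the parent over all aligned bases numbered 6, and their summed counts were 16000 for RPS28P7, 13850 for RPL36AP37, 1515 for RPL21P16, 1187 for RPL39P3, 650 for RPL41P5 and 589 for RPL41P1. Within these bases a read fits both places equally well. For the RNA-seq of tumour tissues in the same study, made with the same tool versions, the methods state that uniquely mapped reads were counted, and for these cell libraries no setting is stated. Under such counting, a read with 2 equal places would not be counted. The counts below are therefore those assigned to a pseudogene, and the share of them that came from the pseudogene rather than from the parent was not tested.

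Together the 158 members held 260068 counts, which was 97.8% of the 265937 counts of all 1599 pseudogenes. They made up 0.207, 0.202 and 0.200% of all counts in the overexpression libraries and 0.194, 0.201 and 0.213% in the vector libraries, and the groups overlapped. Set against the parents, which held between 5.33 and 5.64% of all counts, the members' counts were 3.67, 3.57 and 3.75% of the parents' counts in the overexpression libraries. In the vector libraries this ratio was 3.52, 3.67 and 3.85%, so it moved over a narrow range and did not separate the groups. The counts were concentrated, with 43 members over 1000, 31 under 100 and a median of 256. A member's count had a median of 0.279% of its parent's count, 3 members exceeded 10%, and none exceeded its parent. At the threshold, RPL23AP2 and RPS26P31 with 61 counts and RPL17P47 and RPL18AP7 with 62 were just inside. RPL10P6 and RPS26P47 with 59 counts and RPL31P46 and RPL7AP39 with 57 were just outside.

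The 12 highest members held 152272 counts, or 58.6% of the total, and all 12 were between 98.4 and 100% identical to their parents. RPS2P46, a copy of the small subunit gene RPS2, had 3759, 4798 and 4075 counts in the overexpression libraries and 4299, 4182 and 4899 in the vector libraries. That is 200.9 ± 25.5 CPM against 206 ± 4.89 CPM (mean ± SD, n = 3 each), with overlapping groups. RPL10P16, a copy of the large subunit gene RPL10 that overlaps an exon of an unnamed protein-coding gene by 89 bases, had 2971, 3028 and 2933 counts against 3181, 3437 and 3963. Scaled to library size, its 142 ± 3.09 CPM lay below the 163 ± 5.34 CPM of the vector libraries without overlap, and edgeR's quasi-likelihood test gave a log2 fold change of -0.20 ± 0.11 (SE) at adjusted p = 0.32. RPL10P9, a copy of the same parent on chromosome 5, likewise did not overlap, at 61.9 ± 4.02 against 68.7 ± 2.31 CPM, with a log2 fold change of -0.15 ± 0.12 at adjusted p = 0.465 (edgeR).

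RPS28P7, the copy of the small subunit gene RPS28 with no base difference, had 2542, 2332 and 2175 counts in the overexpression libraries and 2446, 2298 and 4207 in the vector libraries. Vector replicate 3 stood apart from the other 5. Per kilobase of transcript RPS28P7 had a level of 589.5 CPM, which is 116% of that of RPS28, although its count was 18.5% of the parent's. The copy is 210 bases long and aligned over 210 bases, whereas the parent's level is divided by its whole, longer transcript. The 116% therefore does not compare like stretches, and a level over the aligned bases alone was not computed. RPL36AP37 had 2219, 2467 and 2332 counts against 2103, 2642 and 2087, with 27.4% of the count of RPL36A. Its level per kilobase was 65.1% of that of RPL36A, with the same limit. RPL36A itself, a large subunit gene, had 437 ± 29.1 CPM in the overexpression and 357 ± 25.2 CPM in the vector libraries (log2 fold change 0.29 ± 0.11, adjusted p = 0.26 by edgeR), whereas RPL36AP37 had a log2 fold change of 0.07 ± 0.14 (adjusted p = 0.779, edgeR). Whether these 2 differences differ from each other was not tested.

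RPL15P3, a copy of the large subunit gene RPL15, had 2556 counts in vector replicate 3 and between 938 and 1442 in the other libraries. RPL15 did not share that excess, with 1220 ± 38.5 CPM over the 3 vector libraries. RPS27AP16, a copy of the gene that makes ubiquitin fused to a small subunit protein, was lowest in the same library, at 697 counts against 974 to 1282 elsewhere. Vector replicate 3 thus held both the highest value of RPL15P3 and the lowest of RPS27AP16. RPL18AP3 had between 83.3 and 115 CPM, RPL13P12 between 77.8 and 117 CPM and RPL3P4, from a parent at the catalytic core of the large subunit, between 74.5 and 90.4 CPM. All 3 had overlapping groups.

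**Figure D2:**
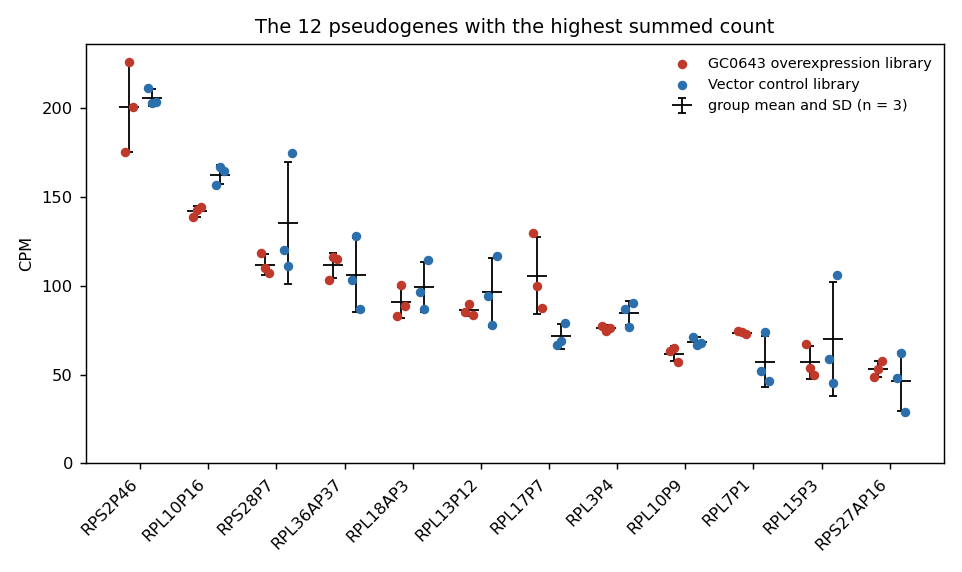
CPM of the 12 ribosomal protein pseudogenes with the highest summed count. Red points are the 3 GC0643 overexpression libraries, blue points the 3 Vector control libraries, and black bars the mean and SD of each group. RPL17P7 lies higher and RPL10P16 and RPL10P9 lower in every overexpression library, and for the other 9 the groups overlap.

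Some members spread widely within a group, and 3 are named here after their values were seen. RPL41P5, 78 bases long and identical to RPL41, had 169, 42 and 51 counts in the overexpression libraries and 24, 69 and 295 in the vector libraries, so the highest CPM was 10.4 times the lowest. RPL39P3, 156 bases long, ranged from 89 to 298 counts, both within the vector group. RPL17P18, 555 bases long, had 155 counts in vector replicate 2 and between 34 and 65 in the other 5. None of these spreads followed the groups.

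The surroundings of members differed with their identity to the parent. Of the 158, 35 overlapped an exon of another annotated gene (18 on the same and 17 on the opposite strand), 63 lay in an intron of another gene and 60 in no other gene. Among the 27 members under 90% identity, 18 overlapped an exon of another gene (66.7%). The share was 10 of 50 (20%) between 90 and 97% and 7 of 81 (8.64%) at 97% and above. The 4 members under 90% identity with the highest counts, among them RPL32P3 with 1562, were of this kind, whereas the fifth, RPL7AP28 with 666 counts, lies in no other gene. RPS26P19 was 79.5% identical to RPS26 and had 1711 counts, and it lies over its whole annotated length of 349 bases in an exon of POLR2D, a subunit of RNA polymerase II, on the same strand. RPL13P5, 78.7% identical to RPL13, had 1068 counts and overlapped exons of LRRC23 by 561 bases. RPL32P29 had 870 counts at 86.5% identity and shared 403 exonic bases with RPS29, itself a ribosomal protein gene. The settings stated for the tissue RNA-seq name no strand option and assign a read to every gene whose exons it overlaps, and for these cell libraries none are stated. Under such counting, reads of such a pseudogene and of the gene around it cannot be told apart.

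**Figure D3:**
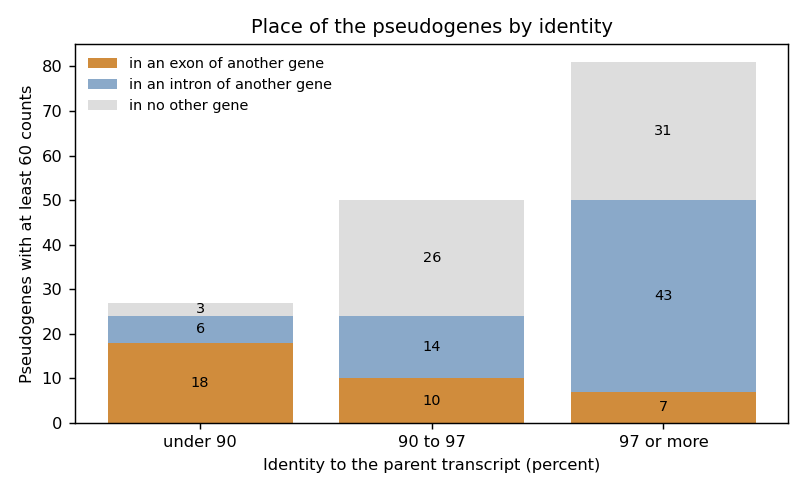
Number of members in an exon of another gene, in an intron of another gene or in no other gene, by identity to the parent transcript (percent). Exon overlap accounts for 18 of 27 members under 90% identity and for 7 of 81 at 97% or more.

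Among copies with an exonic length of at least 300 bases, RPL36AP37 and RPL21P16 were nearest to their parents, both at 100% identity. RPL21P16 had between 224 and 298 counts per library. RPL28P2, in an exon of COPS7B on the opposite strand, and RPS20P33, in an intron of PACS2, were farthest, at 74.6 and 76.7%. Their counts were between 13 and 22 and between 10 and 28 per library.

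The families differed in how many copies were counted and in their weight. RPL21 had most members, 10 of 133 annotated copies, followed by RPL7A with 9 of 80 and RPL23A, RPSA and RPS3A with 7 each of 91, 74 and 53. Many members did not mean a large share. The 10 copies of RPL21 held 5.97% of the counts of the parent and its members together, the 9 of RPL7A 2.61% and the 7 of RPSA 1.82%. The single member of RPL36A held 21.5%, the 2 of RPS28 15.8%, the 3 of RPL7 12.4% and the 5 of RPL17 12.4%.

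The design asks which genes differ in cells that overexpress GC0643. As these are bulk samples, fewer cells with a transcript and less of it per cell cannot be told apart. Of the 158 members, 153 passed the filter on low counts and entered edgeR's quasi-likelihood test over 19528 genes, and 5 did not (RPL9P29, RPL21P119, RPL18AP7, RPL23AP2 and RPS26P31, with 61 to 69 counts). No member passed an adjusted p of 0.05, and neither did any other gene (0% of all genes tested). The lowest adjusted p of a member was 0.26, and DESeq2, limma and the likelihood ratio test of edgeR also called 0 members. Without vector replicate 2, 13 members and 19.1% of all genes passed, and with a correction for GC content added to that fit 0 members did. At an unadjusted p under 0.05, 16 members were higher in the overexpression libraries (10.5% of those tested, with 13.1% of all genes) and 4 were lower (2.61%, with 5.26% of all genes). Both shares lay under the share of all genes. The split of 16 against 4 was 14 against 7 with DESeq2's size factors. These 20 members had adjusted p between 0.26 and 0.27, so no single difference below passed the correction for 19528 tests. Past a fold of 1.5 at the same p, the study's thresholds, 6 members were higher (3.92%, with 1.6% of all genes) and 4 lower (2.61%, with 0.871% of all genes). Those 10 had between 85 and 666 counts, and the standard error of the log2 fold change had a median of 0.29 in members and 0.11 in parents. Groups did not overlap in 17 members with higher CPM (11.8% of all genes) and 12 with lower CPM (10.5% of all genes), which is 11.1 and 7.84% of those tested.

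The median log2 fold change of the members was 0.02, that of all genes tested 0.02 and that of the 57 parents 0.11. Members' fold changes ran from -1.14 to 0.98 and those of parents from -0.25 to 0.47. Among parents, 15 were higher and 2 lower at that unadjusted p, and none passed the fold. That is 26.3 and 3.51% of the 57 parents, with 13.1 and 5.26% of all genes. With a correction for GC content the split was 3 higher and 4 lower, without vector replicate 3 it was 4 and 0, and without vector replicate 2 it was 24 and 7. In the first of these fits 2.91% of all genes were higher and 3.22% lower. The second had 7.71 and 2.66%, and the third 22.8 and 14.2%. RPS3A (0.47), RPL7 (0.44), RPS24 (0.40), RPL6 (0.38) and RPL21 (0.35) had the largest log2 fold changes among the 15, and RPS2 (-0.25) and RPS9 (-0.25) were the 2 lower ones. Over all 76 cytosolic ribosomal protein genes the median was 0.01, with 15 higher and 3 lower at that p. Translation genes whose mRNAs begin with an oligopyrimidine tract, the sequence that ties ribosomal protein synthesis to growth signals, had a median of 0.14, with 8 of 20 higher and 1 lower. The 1080 other processed pseudogenes with at least 60 counts had a median of 0.02, and of the 1053 tested 38 were higher and 33 lower at that p.

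Of the 16 higher members, 13 had a parent with a fold change above 0, and 10 a parent that was itself higher at an unadjusted p under 0.05. RPL17P7 had the smallest p of all members. Its counts were 2778, 2124 and 1774 in the overexpression libraries and 1351, 1417 and 1907 in the vector libraries, and after scaling every overexpression library lay above every vector library. The means were 106 ± 21.6 and 71.5 ± 6.81 CPM (SD, n = 3), a log2 fold change of 0.56 ± 0.15 (SE) at an unadjusted p of 0.00177 by edgeR. Its parent RPL17, which lines the exit tunnel of the large subunit, had 765 ± 26.4 and 651 ± 133 CPM, with overlapping groups and a log2 fold change of 0.23 ± 0.14. RPS7P1, a copy of the small subunit gene RPS7, had 900, 952 and 809 counts against 589, 785 and 662. Its groups did not overlap, and its log2 fold change of 0.42 ± 0.15 (unadjusted p = 0.0117, edgeR) stood beside 0.31 ± 0.13 for RPS7.

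Of the 6 members past the fold upward, RPS3AP6 had the smallest p and differs from its parent at 4 bases over the whole copy. It had 123, 127 and 150 counts in the overexpression libraries and 80, 70 and 115 in the vector libraries, which after scaling did not overlap (log2 fold change 0.65 ± 0.20, unadjusted p = 0.0057, edgeR). RPS3A had 0.47 ± 0.13. RPL7AP28 is 82.2% identical to RPL7A and lies in no other gene. It had 141, 139 and 121 counts against 93, 104 and 68, with a log2 fold change of 0.62 ± 0.22 (unadjusted p = 0.0127, edgeR), while RPL7A had -0.10 ± 0.10. RPS18P9 has 3 exons, 206 bases of which overlap exons of KATNA1, a subunit of a microtubule-severing enzyme, on the opposite strand. Its counts were 73, 94 and 68 against 42, 49 and 54 (log2 fold change 0.74 ± 0.23, unadjusted p = 0.00568, edgeR). KATNA1 had a log2 fold change of 0.53 at an unadjusted p of 0.00998 (edgeR), and the parent RPS18 had -0.06 ± 0.10. RPL21P75, with 1 mismatch to RPL21, had 72, 66 and 111 counts against 60, 53 and 53 (0.63 ± 0.26) and overlaps a lncRNA on the opposite strand that had 0.61 itself. RPL21P134 had 22, 17 and 38 counts against 12, 19 and 9, with overlapping groups (0.98 ± 0.43). RPS9P1, which lies whole within an exon of CBR3-AS1, had 32, 19 and 20 counts against 11, 12 and 19 (0.80 ± 0.37). CBR3-AS1 had a log2 fold change of -0.15 at an unadjusted p of 0.28 (edgeR), and the parent RPS9 had -0.25 ± 0.11.

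All 4 members past the fold downward had groups that did not overlap. RPL23AP64, shown above with its 13 differences, had 23, 15 and 20 counts in the overexpression libraries and 52, 41 and 38 in the vector libraries. Its log2 fold change was -1.14 ± 0.32 at an unadjusted p of 0.00282 by edgeR, whereas its parent RPL23A, which sits at the exit of the peptide tunnel, had 0.34 ± 0.12. RPL13AP22 had 50, 67 and 50 counts against 76, 118 and 102 (-0.78 ± 0.24, unadjusted p = 0.00458, edgeR). RPL13AP7 had 8, 10 and 10 counts against 15, 18 and 24 (-0.96 ± 0.39), and their parent RPL13A had -0.20 ± 0.11. RPS28P4 differs from RPS28 at 1 base and had 25, 31 and 24 counts against 61, 40 and 46 (-0.84 ± 0.29). RPSAP70 is next by p among members lower without overlap, at 25, 26 and 22 counts against 32, 26 and 61 (-0.63 ± 0.33, unadjusted p = 0.0697, edgeR).

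**Figure D4:**
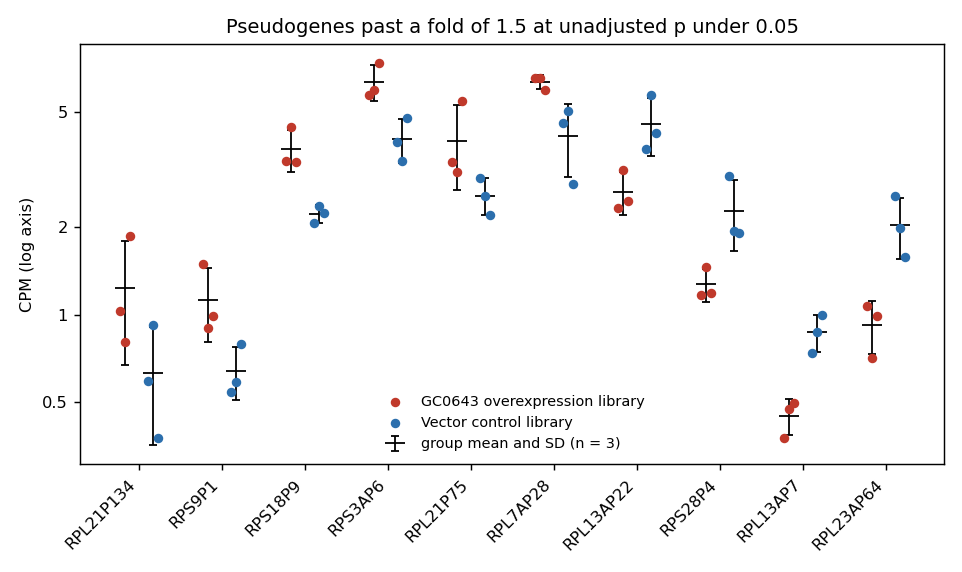
CPM on a log axis of the 10 members past a fold of 1.5 at an unadjusted p under 0.05, ordered by log2 fold change from RPL21P134 (0.98) to RPL23AP64 (-1.14). Red points are overexpression libraries, blue points vector libraries, black bars the mean and SD of each group, and only RPL21P134 has overlapping groups.

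RPL23AP64 and RPS18P9 passed both thresholds in all 18 other fits made for them, RPL13AP22 in 17, RPL7AP28 in 16, RPS28P4 in 15, RPS3AP6 in 13 and RPL21P75 in 12. RPL21P134 did so in 9 of 17, RPS9P1 in 8 of 17 and RPL13AP7 in 7 of 17. The call of RPL13AP7 held in 1 of the 6 fits that left out 1 library, that of RPS9P1 in 2, that of RPL21P134 in 3 and those of RPS3AP6 and RPL21P75 in 4.

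The fold changes of close copies followed those of their parents. Of the 76 tested members at or above the median identity, 64 had the sign of their parent, and Spearman's rho between the 2 fold changes was 0.73. Of the 77 under it, 48 had that sign, and rho was 0.24. The close copies were also the better counted, with a median of 951 counts against 166. The size of the difference between member and parent had a median of 0.16 on the log2 scale in the first set and 0.26 in the second. Among the 38 members at 97% identity or more and over 1000 counts, 37 had the sign of the parent and rho was 0.79. In 30 of these 38 the ratio of member to parent was steadier over the libraries than the member's CPM, with a median SD of 0.16 against 0.23 on the log2 scale. Members and parents were measured in the same libraries, copies of the same parent share its value, and reads of close copies can be assigned to either, so these are descriptions. Between log2 fold change and GC content, rho was -0.72 in the 76 members at or above the median identity and -0.33 in the 77 under it. The parts of shared reads and of GC content in the likeness to the parents were not tested.

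**Figure D5:**
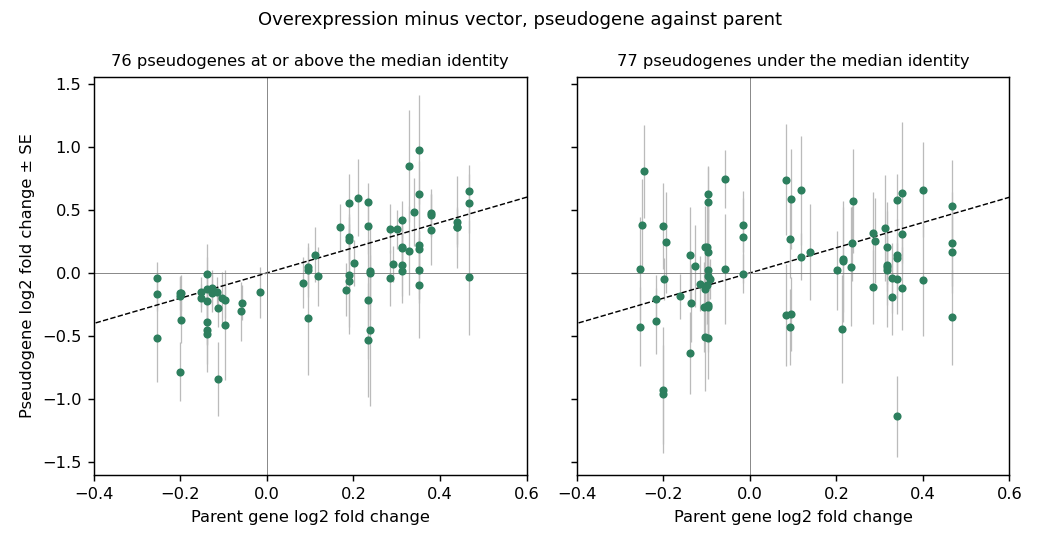
Log2 fold change (overexpression minus vector) of each tested member with its SE, against that of its parent gene. The left panel holds the 76 members at or above the median identity, the right panel the 77 under it, and the dashed line marks equal values. Points gather along the line on the left (rho 0.73) more than on the right (rho 0.24).

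Base composition moved with the same differences. Across members, Spearman's rho between log2 fold change and the GC content of the exons was -0.52, and across 19401 genes tested it was -0.67. When tested members were split by GC content into 3 sets of 51, the set with the lowest GC content (39.7 to 46.2%) had a median log2 fold change of 0.22, and at an unadjusted p under 0.05 it held 8 higher members of 51 (15.7%) and 0 lower ones. All genes in that GC range had a median of 0.26, with 23.9% higher and 0.386% lower. The middle set had 0.08 and the set with the highest GC content (51.7 to 62.9%) -0.19, with 2 of 51 higher and 3 lower, and all genes of those ranges had 0.04 and -0.17. In the highest range 0.769% of all genes were higher and 9.31% lower at that p. After a loess correction of each library for GC content, 8 members were higher and 5 lower at that p (5.23 and 3.27%, with 2.91 and 3.22% of all genes in the same fit), and the medians of members and of parents were 0.01 and 0.00. RPL7AP28, RPS18P9 and RPS9P1 were the higher members still past the fold, and all 4 lower ones were too.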

How the data were processed

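RNA came from 6 HGC-27 samples, 3 in each labelled group. The authors deposited whole-number counts per Ensembl gene, made per the labels with featureCounts 2.0.0 after alignment to GRCh38 by HISAT2 2.1.0 and trimming by Trimmomatic 0.32, from NEBNext Ultra libraries. The methods give counting settings for the tissue RNA-seq of the study (unique reads, assigned to every overlapping gene, no strand option) and none for these libraries. Gene types and names came from GENCODE version 44, in which 58472 of 58825 genes matched. Each column was matched to 1 sample, and 0 columns were left unused. Intervals of counting error are not printed, since the spread between libraries is given.

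Members and gene lists were chosen with earlier results of these data known. The named members were the 12 highest, those past the fold and p thresholds, the 5 with the smallest p per direction whose groups do not overlap, 4 on each side of the count threshold, and the 2 nearest to and farthest from the parent, together with their parents and the 5 parents with most members. Others were named after their values were seen.

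Counts were fitted across all genes with edgeR 4.0.16 (filterByExpr, TMM scaling, glmQLFit and glmQLFTest, Benjamini-Hochberg adjustment) in R 4.3.3. Log2 fold changes are overexpression minus vector. The labels do not say whether the samples came from separate cultures, so p-values measure the spread between samples, which may be technical. CPM used TMM-scaled totals, with 0.5 added before logs, and levels per kilobase used the length of the canonical transcript. Pseudogene transcripts were aligned to parent transcripts with Biopython 1.88 (local alignment, match 2, mismatch -3, gap opening -5, gap extension -2). A junction was counted as read through when 10 bases on both sides were aligned without a break. Alternatives were other scalings, DESeq2 1.42.0, limma 3.58.1, other filters, GC correction, the replicate block, and leaving out each library.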

Additional observations from a re-analysis of the deposited data

How the results depend on the processing

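The member and parent results kept their value in 120 comparisons with an alternative and moved in 31. A count kept it when within 1.5 times of it. A median kept it when within the spread between libraries, 0.0301 for members and 0.0721 for parents. Within that margin the member median, 0.0206, fell below 0 with DESeq2 size factors (-0.0063) and DESeq2 (-0.00755). It also did with CPM over 1 in at least 3 libraries (-0.00596) and a summed count of at least 120 (-0.00659). Of the fold changes of 27 named genes, 470 kept sign and side of the adjusted threshold, 19 passed it and 5 changed sign. Those were RPS18, at 0.007431 with the GC correction, 0.007448 with the replicate block and GC correction and 0.02539 with the GC correction without vector replicate 2, and RPL17 at -0.04058 and RPS28 at 0.002243 with the GC correction without vector replicate 3. The last 2 settings were chosen after seeing the data. Members higher past the fold numbered 6, and 3 with the GC correction, 3 with the replicate block and GC correction, and 3 in no exon of another gene. Members lower past the fold numbered 4, and 2 with the replicate block and GC correction, 2 with the GC correction without vector replicate 2, and 1 among those with at least 300 counts. The share of all genes past the fold is given for the main fit alone, here and below. Members higher at unadjusted p numbered 16, 8 with the GC correction, 9 with the replicate block and GC correction and 8 with the GC correction without vector replicate 2, where 13.1, 2.91, 2.01 and 6.70% of all genes were higher. Members lower at that p numbered 4, 7 with DESeq2 size factors, 11 with no filter, 2 with the replicate block and GC correction, and 1 among those with at least 300 counts. Members at adjusted p numbered 1 with no filter, with 0.618% of all genes. The parent median was 0.00155 with the GC correction and -0.00345 with the block added. With the GC correction and without vector replicate 2 or 3 it was 0.0178 and -0.013. The member median was 0.0588 with the GC correction and without vector replicate 3, and 0.0757 without that library alone. The cause of these changes was not tested.

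Leaving out 1 library gave 3 to 12 members higher and 3 to 5 lower past the fold. At unadjusted p it gave 6 to 23 members higher, with 4.14 to 22.8% of all genes. At that p 3 to 11 members were lower, with 1.84 to 14.2% of all genes. At adjusted p it gave 0 to 13 members, with 0 to 19.1% of all genes. The member median ran from -0.0234 to 0.0933 and the parent median from 0.0101 to 0.174. Without vector replicate 2, 13 members, 19 parents and 19.1% of all genes passed the adjusted threshold, and with the GC correction added 0 members did. Without vector replicate 3, 1 member passed, with 0.146% of all genes. Without vector replicate 1, 6 members were higher at unadjusted p (4.14% of all genes), and without overexpression replicate 3, 7 (6.36%). Without vector replicate 2, 22.8% of all genes were higher and 14.2% lower at that p. Members higher past the fold numbered 12 without vector replicate 2, 10 without overexpression replicate 2 and 3 without overexpression replicate 3. Same-numbered libraries of the 2 groups had correlations of deviations of -0.21, -0.03 and -0.31, and differently numbered ones between -0.17 and 0.31. These values gave no sign that the numbers pair samples, but with so few libraries they cannot exclude it. The replicate block gave 14 members higher and 3 lower at unadjusted p and 5 and 3 past the fold, with a median of 0.0246. At that p, 9.96% of all genes were higher and 1.61% lower in the same fit. Depth limits the low members, as 31 of 158 had under 100 counts over the 6 libraries.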
